A study of Homo sapiens with 18 samples.

Results

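Matriptase and prostasin are serine proteases held on the surface of epithelial cells, and their genes, ST14 and PRSS8, were followed here together with TMPRSS4, the Kunitz-type inhibitor genes SPINT1 and SPINT2, and F2RL1, which encodes the receptor PAR2. The members were the 6 rows of the deposited table with these symbols, out of 41120 symbols in all, and all 6 passed the filter on low counts that left 12291 genes for testing. ST14 was picked for its rise in post-hypoxic SCC154 cells, so every value of ST14 that involves SCC154 libraries is a description and carries no test. The other 5 genes were chosen as its partners by function.

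Matriptase is made as an inactive precursor with a membrane anchor at its amino-terminal end, and it and prostasin can activate one another in epithelia. The inhibitors HAI-1 (SPINT1) and HAI-2 (SPINT2) are membrane proteins that bind the active proteases and hold them in check. PAR2 is a G protein-coupled receptor that is switched on when a protease cuts its extracellular end, and matriptase is among the proteases able to do so. In stratified epithelia this system is known for its part in barrier formation, and loss of its inhibition is known to promote squamous carcinoma in mouse skin.

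The 18 libraries came from FADU-hfm (HPV-negative) and SCC154-hfm (HPV-positive) cells, derivatives of established head and neck squamous carcinoma lines transduced with a hypoxia fate-mapping reporter, in which cells switch lastingly from DsRed to GFP after low oxygen. Spheroids of both lines were taken apart with trypsin, sorted into GFP-positive (post-hypoxic) and DsRed-positive (non-hypoxic) cells, and cultured under normoxic conditions before RNA extraction. There were 4 post-hypoxic and 5 non-hypoxic SCC154 libraries, and 5 post-hypoxic and 4 non-hypoxic FADU libraries. Messenger RNA was read as tags at the 3′ end of transcripts with a QuantSeq kit. Within each line, the question was whether transcripts differ between the sorted populations once oxygen is normal again. All groups carried the reporter and went through the same dissociation, and HPV status cannot be told apart from line. The labels do not tie replicates to independent cultures or sorts, so each p-value is set against a spread among libraries that may be technical.

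Library totals lay between 1654719 and 2503573 counts. Levels are given in CPM, scaled to a common library size, and 1 CPM stood for 1.68 to 2.44 counts. The 12 epithelial markers were all tested and none passed the threshold between populations within a line. Of all genes, 0.757% passed in SCC154 and 0% in FADU. At an unadjusted edgeR p under 0.05 there were 3 markers in SCC154 and 2 in FADU, against 1930 and 298 of all 12291 genes. Of the 12 markers, 10 in SCC154 and 9 in FADU had a log2 fold change above 0, with medians of 0.16 and 0.05. Their summed level was 4084 to 4759 CPM in post-hypoxic SCC154 and 3839 to 4339 CPM in non-hypoxic SCC154. In FADU it was 3996 to 4324 CPM in post-hypoxic and 3805 to 4290 CPM in non-hypoxic libraries. Single markers did differ between the lines, 11 of 12 in post-hypoxic cells (4 higher and 7 lower in SCC154) and 12 of 12 in non-hypoxic cells (4 higher and 8 lower). Of all genes, 69.7% differed in post-hypoxic cells (34.8% higher and 34.9% lower) and 68.9% in non-hypoxic cells (34.5% each way). KRT5, a basal keratin, had 23.4 ± 2.82 CPM in non-hypoxic SCC154 and 196 ± 20.1 CPM in non-hypoxic FADU. None of 8 fibroblast, 6 endothelial or 8 immune markers had enough counts to be tested. The fibroblast list summed to at most 5.80 CPM in any library and the endothelial list to at most 5.18 CPM. The immune list summed to 2.72 to 3.58 CPM in post-hypoxic SCC154, against 0.415 to 1.97 CPM in non-hypoxic SCC154, and to 0.920 to 3.18 CPM in post-hypoxic FADU, against 1.90 to 4.99 CPM in non-hypoxic FADU. In post-hypoxic SCC154 these counts came mostly from CD68 and CD14, with CD3E, MS4A1 and NKG7 at 0 in every library. The part of these few counts in the results was not tested. In bulk RNA, fewer cells that make a transcript and less of it per cell cannot be told apart.

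ST14, on chromosome 11 (130159562 to 130210376, plus strand, hg38 by GENCODE 29), had 153, 149, 148 and 154 CPM in post-hypoxic SCC154 replicates 2 to 5, against 124, 101, 101, 113 and 101 CPM in non-hypoxic SCC154 replicates 1 to 5. Every post-hypoxic library lay above every non-hypoxic one. The means were 151 ± 2.90 CPM (SD, n = 4) and 108 ± 10.4 CPM (SD, n = 5), a ratio of 1.403 and a log2 difference of 0.49. Of all tested genes, 5.55% had libraries of these groups that did not overlap (2.56% higher and 2.99% lower in post-hypoxic cells), and 0.757% passed an adjusted p of 0.05 by edgeR in this contrast; ST14 was picked from this contrast, so nothing is read from its place among them. The post-hypoxic values were closely spaced. Their SD was 1.92% of the mean, where counting error alone would give 5.49% at these depths.

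In FADU, which had no part in the choice, ST14 had 139, 125, 113, 150.2 and 116 CPM in post-hypoxic replicates 1 to 5, against 109, 128, 119 and 119 CPM in non-hypoxic replicates 1 to 4. The groups overlapped. The log2 fold change was 0.11 (SE 0.10, edgeR adjusted p = 1), with a 95% interval from -0.10 to 0.33. The difference between the lines in the ST14 response was 0.37 on the log2 scale and is given without a test, since it contains the contrast that picked the gene. The levels of ST14 were in the order post-hypoxic SCC154, post-hypoxic FADU, non-hypoxic FADU and non-hypoxic SCC154, and each group overlapped the next.

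**Figure D1:**
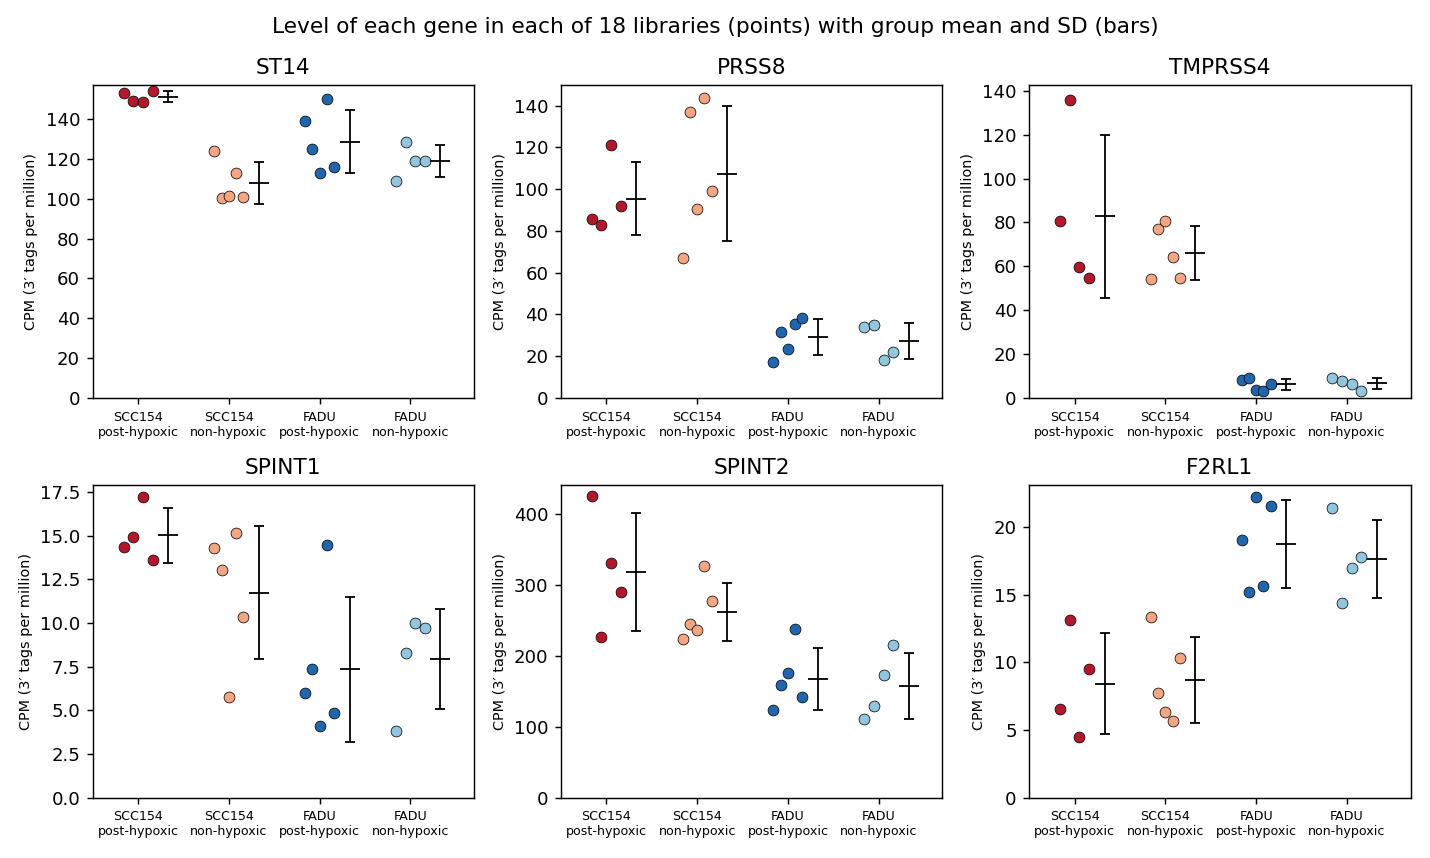
Level of the 6 genes in CPM (vertical axes, linear, from 0) in each of the 18 libraries, with points for libraries in order of replicate number and bars for the group mean ± SD. ST14 lies at 148 to 154 CPM in post-hypoxic SCC154 and at 101 to 124 CPM in non-hypoxic SCC154, while PRSS8, TMPRSS4 and F2RL1 separate the lines.

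PRSS8, on chromosome 16 (31131433 to 31135762, minus strand), encodes prostasin, a protease with a lipid (GPI) anchor. It had 85.6, 82.9, 121 and 92.1 CPM in post-hypoxic SCC154 replicates 2 to 5, against 67.1, 137, 90.3, 144 and 99.1 CPM in non-hypoxic SCC154 replicates 1 to 5. The post-hypoxic values lay inside the range of the non-hypoxic ones. The log2 fold change was -0.17 (SE 0.21, edgeR adjusted p = 0.744), with a 95% interval from -0.61 to 0.27. In FADU, PRSS8 had 17.4, 31.8, 23.6, 35.5 and 38.3 CPM in post-hypoxic replicates 1 to 5, against 34.2, 34.8, 17.97 and 22.1 CPM in non-hypoxic replicates 1 to 4. These groups overlapped as well, with a log2 fold change of 0.11 (SE 0.26, edgeR adjusted p = 1).

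Between the lines PRSS8 differed more than between the sorted populations. Every SCC154 library lay above every FADU library, the lowest SCC154 value being 67.1 CPM and the highest FADU value 38.3 CPM. In post-hypoxic cells PRSS8 averaged 95.5 ± 17.7 CPM in SCC154 (SD, n = 4) and 29.3 ± 8.63 CPM in FADU (SD, n = 5), 3.23-fold higher (log2 fold change 1.69, SE 0.23, edgeR adjusted p = 6.77e-07). In non-hypoxic cells it averaged 107 ± 32.2 CPM in SCC154 (SD, n = 5) and 27.3 ± 8.54 CPM in FADU (SD, n = 4), 3.91-fold higher (log2 fold change 1.97, SE 0.24, edgeR adjusted p = 1.59e-07). An antisense gene of the annotation that is not in the table under its symbol, AC009088.3, covers the 3′ end of PRSS8 on the other strand, and the strand setting of the counting is not given in the sources used here, so the level of PRSS8 is uncertain to that extent.

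TMPRSS4 encodes another membrane-anchored serine protease of the same type as matriptase and lies on chromosome 11 as well (118077012 to 118121890, plus strand). It had 80.7, 136, 59.9 and 54.9 CPM in post-hypoxic SCC154 replicates 2 to 5, against 54.3, 76.8, 80.5, 64.2 and 54.7 CPM in non-hypoxic SCC154 replicates 1 to 5. Post-hypoxic replicate 3 was high and the other 3 libraries lay within the range of the non-hypoxic ones or next to it. The log2 fold change was 0.32 (SE 0.23, edgeR adjusted p = 0.528), and without post-hypoxic replicate 3 it was -0.01 (adjusted p = 0.989). In FADU, TMPRSS4 was low in both populations, with 3.30 to 9.20 CPM in 5 post-hypoxic libraries and 3.24 to 9.03 CPM in 4 non-hypoxic ones (log2 fold change -0.15, SE 0.40, edgeR adjusted p = 1).

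TMPRSS4 had the widest gap between the lines among the 6 genes. In post-hypoxic cells it averaged 82.9 ± 37.2 CPM in SCC154 (SD, n = 4) and 6.18 ± 2.65 CPM in FADU (SD, n = 5), 13.4-fold higher (log2 fold change 3.74, SE 0.29, edgeR adjusted p = 9.32e-11). In non-hypoxic cells it averaged 66.1 ± 12.2 CPM in SCC154 (SD, n = 5) and 6.65 ± 2.50 CPM in FADU (SD, n = 4), 9.69-fold higher (log2 fold change 3.28, SE 0.31, edgeR adjusted p = 2.45e-09). The lowest SCC154 library, at 54.3 CPM, lay far above the highest FADU library at 9.20 CPM, and the values in FADU rested on 6 to 20 counts each.

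SPINT2, on chromosome 19 (38244035 to 38292614, plus strand), encodes HAI-2 and gave the most tags of the 6 genes in each of the 4 groups. It had 425, 227, 331 and 289 CPM in post-hypoxic SCC154 replicates 2 to 5, against 223, 245, 237, 326 and 277 CPM in non-hypoxic SCC154 replicates 1 to 5. Post-hypoxic replicate 2 stood above the non-hypoxic range, replicate 4 just above it, and the other pair within it. The log2 fold change was 0.28 (SE 0.19, edgeR adjusted p = 0.494), with a 95% interval from -0.11 to 0.68. In FADU, SPINT2 had 123, 158, 176, 238 and 142 CPM in post-hypoxic replicates 1 to 5, against 111, 129.8, 173 and 215 CPM in non-hypoxic replicates 1 to 4. Libraries with the same number lay close together, replicate 1 being lowest and replicate 4 highest in both FADU populations, and the log2 fold change was 0.10 (SE 0.20, edgeR adjusted p = 1). The post-hypoxic library was higher in 4 of 4 same-numbered pairs, by 0.02 to 0.28 on the log2 scale, and with the pairs as a block the log2 fold change was 0.15 (SE 0.11, edgeR adjusted p = 0.869).

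SPINT2 was also higher in SCC154 than in FADU. In post-hypoxic cells it averaged 318 ± 83.3 CPM in SCC154 (SD, n = 4) and 167 ± 43.9 CPM in FADU (SD, n = 5), 1.90-fold higher (log2 fold change 0.93, SE 0.19, edgeR adjusted p = 0.000167), although SCC154 replicate 3 at 227 CPM lay below FADU replicate 4 at 238 CPM. In non-hypoxic cells it averaged 262 ± 41.0 CPM in SCC154 (SD, n = 5) and 157 ± 46.2 CPM in FADU (SD, n = 4), 1.67-fold higher (log2 fold change 0.74, SE 0.20, edgeR adjusted p = 0.00201), with no overlap. A same-strand gene of the annotation, AC011479.1, spans the 3′ end of SPINT2 and is not in the table under its symbol.

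SPINT1, on chromosome 15 (40844018 to 40858207, plus strand), encodes HAI-1, an inhibitor that binds matriptase at the cell surface. Its counts were low, 25 to 42 per library in post-hypoxic SCC154 and 10 to 35 in non-hypoxic SCC154. It had 14.3, 14.9, 17.2 and 13.6 CPM in post-hypoxic SCC154 replicates 2 to 5, against 14.3, 13.05, 5.75, 15.2 and 10.4 CPM in non-hypoxic SCC154 replicates 1 to 5. The groups overlapped, and the log2 fold change was 0.34 (SE 0.29, edgeR adjusted p = 0.599), with a 95% interval from -0.26 to 0.95. In FADU it had 5.99, 7.36, 4.09, 14.4 and 4.84 CPM in post-hypoxic replicates 1 to 5, against 3.80, 8.27, 9.98 and 9.71 CPM in non-hypoxic replicates 1 to 4 (log2 fold change -0.08, SE 0.35, edgeR adjusted p = 1).

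The SPINT1 difference between the lines passed the threshold in post-hypoxic cells, at 15.02 ± 1.56 CPM in SCC154 (SD, n = 4) and 7.35 ± 4.16 CPM in FADU (SD, n = 5), 2.01-fold higher (log2 fold change 1.01, SE 0.31, edgeR adjusted p = 0.00613). In non-hypoxic cells it did not, at 11.7 ± 3.81 CPM in SCC154 (SD, n = 5) and 7.94 ± 2.86 CPM in FADU (SD, n = 4), with a log2 fold change of 0.58 (SE 0.33, edgeR adjusted p = 0.116). Without the low non-hypoxic SCC154 replicate 3 the difference in non-hypoxic cells passed (0.75, edgeR adjusted p = 0.0395). That was the 1 of 26 other fits in which it passed, and the log2 fold change ran from 0.35 to 0.75 over these fits. The change in the line difference between populations was itself not past the threshold (0.42, SE 0.45, edgeR adjusted p = 0.792). The antisense gene SPINT1-AS1 averaged 8.07 CPM, against 10.4 CPM for SPINT1, and overlaps it by 370 bases that do not cover the 3′ end of SPINT1.

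F2RL1, on chromosome 5 (76818933 to 76835315, plus strand), encodes PAR2 and was the only one of the 5 tested partners with a lower level in SCC154. It had 6.55, 13.1, 4.51 and 9.53 CPM in post-hypoxic SCC154 replicates 2 to 5, against 13.3, 7.73, 6.33, 5.64 and 10.4 CPM in non-hypoxic SCC154 replicates 1 to 5. The groups overlapped widely, at 11 to 27 counts per library (log2 fold change -0.10, SE 0.29, edgeR adjusted p = 0.909). In FADU it had 19.1, 15.2, 22.2, 15.7 and 21.6 CPM in post-hypoxic replicates 1 to 5, against 21.4, 14.4, 17.0 and 17.8 CPM in non-hypoxic replicates 1 to 4, again overlapping (log2 fold change 0.09, SE 0.24, edgeR adjusted p = 1).

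Every SCC154 library had less F2RL1 than any FADU library, with 13.3 CPM as the highest SCC154 value and 14.4 CPM as the lowest FADU value. In post-hypoxic cells F2RL1 averaged 8.43 ± 3.75 CPM in SCC154 (SD, n = 4) and 18.7 ± 3.25 CPM in FADU (SD, n = 5), 2.29-fold lower in SCC154 (log2 fold change -1.20, SE 0.26, edgeR adjusted p = 0.000319). In non-hypoxic cells it averaged 8.68 ± 3.17 CPM in SCC154 (SD, n = 5) and 17.6 ± 2.90 CPM in FADU (SD, n = 4), 2.01-fold lower (log2 fold change -1.01, SE 0.26, edgeR adjusted p = 0.00146).

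Read together, 0 of the 5 partners of ST14 passed in SCC154, where 0.757% of all genes did, and 0 of all 6 genes passed in FADU, where 0% of all genes did. The libraries of the FADU populations overlapped for all 6 genes, where 1.07% of all genes had none (0.561% higher and 0.504% lower in post-hypoxic cells). In FADU edgeR called none of 12291 genes, with 298 at an unadjusted p under 0.05, DESeq2 called 3 and limma voom 0, and none of the 6 genes was among these or had an unadjusted p under 0.05. In SCC154, where 1930 of 12291 genes had an unadjusted p under 0.05, none of the 5 partners did, and none was called by DESeq2 or limma voom. With the replicate number as a block, PRSS8 and SPINT2 had an unadjusted p of 0.0315 and 0.0447 in SCC154, and edgeR adjusted p of 0.158 and 0.194. The line-by-population interaction was not past the threshold for any of the 5 (edgeR adjusted p from 0.772 to 0.913), where 0.0163% of all genes passed. Between the lines, 5 of 5 partners passed in post-hypoxic cells and 4 of 5 in non-hypoxic cells, against 69.7% and 68.9% of all genes, so that a difference between these lines was the usual case. The libraries of the lines did not overlap for 3 of 5 partners in post-hypoxic cells and 4 of 5 in non-hypoxic cells, against 57.3% and 56.5% of all genes. Among these, F2RL1 was the 1 lower in SCC154, where 28.6% of all genes were lower without overlap in post-hypoxic and 27.8% in non-hypoxic cells. ST14 differed by 0.23 (log2) in post-hypoxic and -0.14 in non-hypoxic SCC154 against FADU, smaller in size than the line difference of any partner, given as a description.

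**Figure D2:**
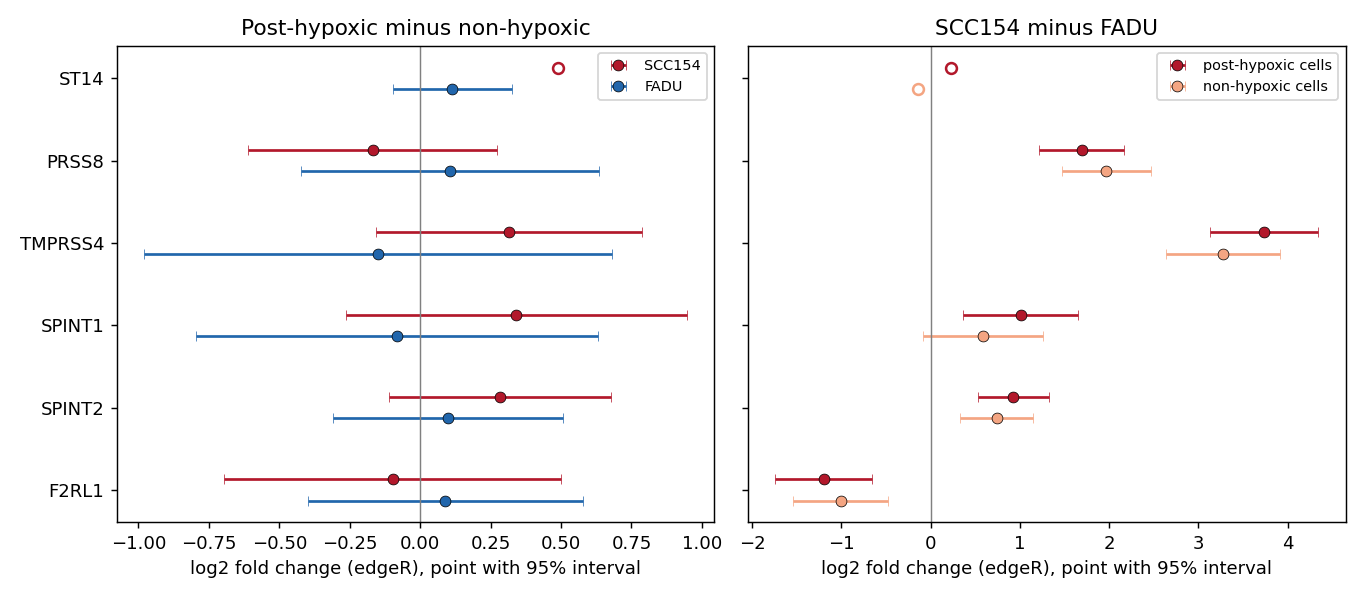
Log2 fold changes (horizontal axes) of the 6 genes for post-hypoxic minus non-hypoxic cells in each line and for SCC154 minus FADU in each population, as edgeR estimates with 95% intervals; open circles without intervals are ST14 values that involve the libraries it was picked on. The intervals of the partners span 0 in both left-hand contrasts, and TMPRSS4 stands at 3.74 and 3.28 in the right-hand ones.

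The balance of proteases and inhibitors was described as ratios of tags within a library, which do not depend on scaling but are not molar ratios, since 3′ tags of different transcripts may be captured unequally. The ratio of ST14 to SPINT1 plus SPINT2 tags ran from 0.349 to 0.617 in post-hypoxic SCC154 and from 0.331 to 0.522 in non-hypoxic SCC154. In FADU it ran from 0.596 to 1.08 in post-hypoxic and from 0.531 to 0.946 in non-hypoxic libraries. The populations overlapped in both lines. Ratios with ST14 in SCC154 libraries contain the rise for which ST14 was picked, so they are descriptions only. In non-hypoxic cells every SCC154 library had a lower ratio than every FADU library, while in post-hypoxic cells the ranges met at 0.617 in SCC154 replicate 3 and 0.596 in FADU replicate 4.

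The ratio of PRSS8 to ST14 tags was lower on average in post-hypoxic SCC154, at 0.632 ± 0.125 (SD, n = 4), against 1.01 ± 0.326 (SD, n = 5) in non-hypoxic SCC154. Its denominator is ST14, whose rise in this group was the reason for its choice, and PRSS8 itself changed by -0.17 (log2, edgeR adjusted p = 0.744). The lower ratio is therefore not read as a change of PRSS8. The non-hypoxic values were 0.542, 1.36, 0.892, 1.27 and 0.984 in replicates 1 to 5, so that replicate 1 lay below all post-hypoxic libraries and the groups overlapped. In FADU the ratio averaged 0.231 ± 0.0740 (SD, n = 5) in post-hypoxic and 0.231 ± 0.0753 (SD, n = 4) in non-hypoxic cells. PRSS8 tags were thus in the range of ST14 tags in SCC154 and well below them in every FADU library. SPINT2 gave 15.2 to 43.0 tags for each SPINT1 tag across the 18 libraries, with overlapping ranges in all 4 groups.

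**Figure D3:**
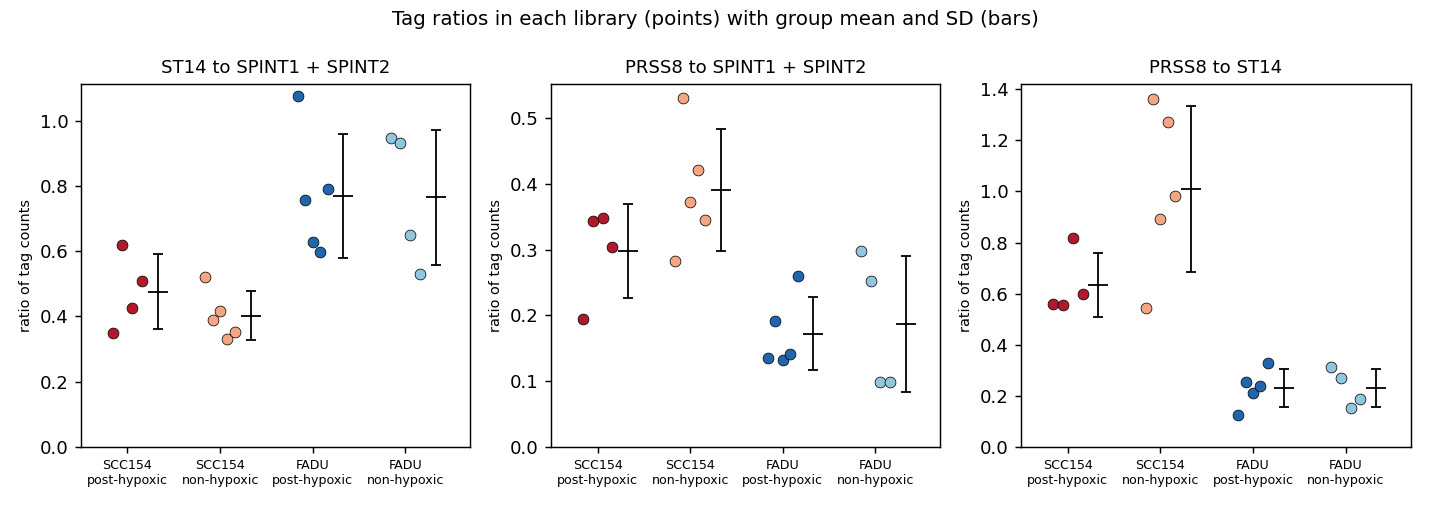
Ratio of tag counts (vertical axes, from 0) of ST14 to both inhibitors, of PRSS8 to both inhibitors and of PRSS8 to ST14 in each of the 18 libraries, with bars for the group mean ± SD. The PRSS8 to ST14 ratio lies at 0.542 to 1.36 in SCC154 libraries and at 0.125 to 0.330 in FADU libraries.

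The genes whose pattern was most like that of ST14 were taken by Pearson correlation of log2 CPM over the 18 libraries, among 9660 other genes with a mean of at least 10 CPM. They were NFRKB (r = 0.76), which encodes a subunit of the INO80 chromatin remodelling complex, the zinc finger gene ZNF572 (0.75), ABHD15 (0.73), LIMCH1 (0.72), an actin-associated protein, and GPKOW (0.70). These libraries share 2 lines and 4 groups, so the values are descriptions. NFRKB lies on the chromosome of ST14, 264 kb from it (129863636 to 129895590, minus strand). It had 111, 105, 77.5 and 96.2 CPM in post-hypoxic SCC154 replicates 2 to 5, against 69.1, 72.5, 65.0, 72.9 and 69.2 CPM in non-hypoxic SCC154 replicates 1 to 5, without overlap. In FADU it averaged 80.4 ± 7.53 CPM in post-hypoxic cells (SD, n = 5) and 75.2 ± 4.63 CPM in non-hypoxic cells (SD, n = 4).

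Within 1 Mb of ST14, 7 other genes were tested. Their median log2 difference between post-hypoxic and non-hypoxic SCC154 was 0.22, where the median of all genes was 0. The 7 include BARX2, which averaged 0.102 and 0 CPM in these 2 groups and passed the filter through FADU. Its SCC154 log2 difference of 1.56 thus rests on almost no counts but enters the median, which is not read as a rise of the region. The nearest tested genes on either side, APLP2 at 14.8 kb and ZBTB44 at 16.3 kb, had log2 differences of 0.22 (edgeR adjusted p = 0.433) and 0.35 (edgeR adjusted p = 0.253). PRDM10, SNX19 and ARHGAP32 had -0.06, 0.03 and -0.005. NFRKB was the 1 of the 7 past the threshold in SCC154 (log2 0.48, edgeR adjusted p = 0.0419), but it was picked by its likeness to ST14 over these libraries, so nothing is read from that call. BARX2, at 707 kb, separated the lines, with a mean of 0.102 CPM in post-hypoxic SCC154 and 40.5 ± 3.73 CPM in post-hypoxic FADU. In FADU the median of the 7 genes was 0.10.

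With the 4 group means taken out, the 5 genes most like ST14 over the 18 libraries were PRSS12 (r = 0.80), GNB4 (0.78), ID2 (0.77), LETM1 (0.73) and RNF121 (0.73), none of them shared with the list above. PRSS12, which encodes the secreted serine protease neurotrypsin, and ID2 averaged under 1 CPM in FADU, where they had at most 2.06 and 1.24 CPM in a library. SPINT1 came 6th of 9660 by this measure, with r = 0.72. The other members had 0.20 (SPINT2), -0.09 (F2RL1), -0.20 (PRSS8) and -0.20 (TMPRSS4). ST14 and SPINT1 thus deviated together within groups more than ST14 and the other members did, which is a description over 18 libraries with 4 group means removed. SPINT1 had 8 to 42 counts per library, where counting error alone would give 17.4% to 24.8% of the group mean. PRSS12 and ID2 reached the mean of 10 CPM through SCC154, and their deviations in FADU rest on few counts.

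Other genes of the system came from 6 lists. Of 57 tested list genes, 0 passed in SCC154 by edgeR and 0 in FADU, where 0.757% and 0% of all genes passed. At an unadjusted p under 0.05 there were 5 list genes in SCC154 and 1 in FADU, against 1930 and 298 of all 12291 genes. None was called by DESeq2 or limma voom in either line. Some of these genes passed the filter through 1 line only and could hardly be called in the other. In SCC154, PRSS21 had no count, and KLK5, KLK13 and PLCB1 averaged at most 0.512 CPM. In FADU, PRDM1 and SERPINB2 had no count, and FLG, TMPRSS3, TMPRSS7, KLK1 and WFDC2 averaged at most 0.491 CPM. Such genes also enter the list medians given next. There PRSS21 stands at 0, and the kallikrein median is the value of KLK6, at 1.96 to 2.35 CPM. The protease median lies between the values of PRSS22 (0.12) and TMPRSS7 (0.53), and TMPRSS7 averaged 3.25 to 4.76 CPM in SCC154. The medians of the lists in SCC154 were 0.33 for 4 other membrane-anchored serine proteases, 0.05 for 17 substrates and effectors, 0.09 for 8 protease-activated receptors and signal partners, 0.03 for 12 other serine protease inhibitors, 0.20 for 5 kallikrein-related peptidases and -0.02 for 11 epithelial transcription factors.

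Between the lines most list genes differed, as most genes did. Of all tested genes, 34.8% were higher and 34.9% lower in SCC154 in post-hypoxic cells, and 34.5% were higher and 34.5% lower in non-hypoxic cells, and the counts of the lists stand against these shares. Of the 4 other membrane-anchored proteases, 2 were higher and 1 lower in SCC154 in both populations. The 2 higher were TMPRSS3 and TMPRSS7, which averaged 3.25 to 7.35 CPM in SCC154 and at most 0.271 CPM in FADU. PRSS21, which encodes testisin, had no count in any SCC154 library, against 37.8 ± 5.15 CPM in 5 post-hypoxic and 30.1 ± 5.48 CPM in 4 non-hypoxic FADU libraries. PRSS22 was at 62.3 ± 7.10 CPM in post-hypoxic SCC154 and 54.8 ± 11.5 CPM in post-hypoxic FADU, and did not pass; it was chosen after its values were seen. Of the 22 symbols of this list, 6 were at 0 in every library, TMPRSS6, TMPRSS9, TMPRSS12 and TMPRSS15 among them.

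Of 17 substrates and effectors, 11 were higher and 2 lower in SCC154 in post-hypoxic cells (all genes 34.8% and 34.9%), and 12 were higher and 3 lower in non-hypoxic cells (all genes 34.5% each). PLAUR, the receptor of the plasminogen activator urokinase, had 203 ± 25.8 CPM in post-hypoxic SCC154 and 23.4 ± 3.02 CPM in post-hypoxic FADU, 8.67-fold higher (edgeR adjusted p = 1.71e-15). FLG, whose precursor protein profilaggrin is processed downstream of matriptase and prostasin in skin, had 177 ± 58.1 CPM in post-hypoxic SCC154, against 0.284 ± 0.263 CPM in post-hypoxic FADU. LAMB3 and LAMA3, chains of laminin-332, were 3.45-fold and 3.08-fold higher in post-hypoxic SCC154 (edgeR adjusted p = 2.62e-10 and 7.62e-08). HGF, the growth factor whose precursor matriptase can activate, was at 0 in every library, and so was SCNN1G, a subunit of the sodium channel that prostasin activates.

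Of 8 receptors and signal partners, 3 were higher and 2 lower in SCC154 in post-hypoxic cells (all genes 34.8% and 34.9%). In non-hypoxic cells 3 were higher and 1 lower (all genes 34.5% each). The other 3 and 4 did not pass, GNAQ, GNA12 and GNA13 in both populations. Among the called genes, F2R, which encodes the thrombin receptor PAR1, ran opposite to F2RL1. It had 53.7 ± 11.9 CPM in post-hypoxic SCC154 and 14.2 ± 3.67 CPM in post-hypoxic FADU, 3.74-fold higher (edgeR adjusted p = 9.28e-09), and 43.9 ± 6.34 CPM in non-hypoxic SCC154 and 9.999 ± 3.13 CPM in non-hypoxic FADU, 4.42-fold higher (edgeR adjusted p = 8.83e-09). PLCB1, a phospholipase that acts behind such receptors, had 0.102 ± 0.205 CPM in post-hypoxic SCC154 and 29.2 ± 4.84 CPM in post-hypoxic FADU. Its relative PLCB3 was 1.93-fold higher in post-hypoxic SCC154 (edgeR adjusted p = 6.86e-07). The arrestin gene ARRB2 had 34.5 ± 6.15 CPM in post-hypoxic SCC154 and 15.7 ± 3.22 CPM in post-hypoxic FADU (edgeR adjusted p = 2.01e-05). F2RL3 was at 0 in every library.

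Of 12 other inhibitors, 7 were higher and 3 lower in SCC154 in post-hypoxic cells (all genes 34.8% and 34.9%), and 8 were higher and 3 lower in non-hypoxic cells (all genes 34.5% each). SLPI, a secreted inhibitor of leukocyte elastase, was 9.14-fold higher in post-hypoxic SCC154 (edgeR adjusted p = 1.37e-09). SERPINE2, an inhibitor that can act on prostasin, had 112 ± 11.1 CPM in post-hypoxic SCC154 and 41.7 ± 4.23 CPM in post-hypoxic FADU, 2.69-fold higher (edgeR adjusted p = 2.02e-07). SERPINB13 and SERPINB1 ran the other way, 8.23-fold and 2.56-fold lower in non-hypoxic SCC154 (edgeR adjusted p = 4.7e-08 and 6.73e-08). Of 5 kallikrein-related peptidases, 2 were higher and 3 lower in SCC154 in both populations, against the same shares of all genes. KLK10 had 219 ± 29.6 CPM in post-hypoxic SCC154 and 26.6 ± 4.84 CPM in post-hypoxic FADU, while KLK5, a peptidase of skin shedding, had 0.512 ± 0.615 CPM in post-hypoxic SCC154 and 13.1 ± 3.43 CPM in post-hypoxic FADU.

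Of 11 epithelial transcription factors and splicing regulators, 7 were higher and 2 lower in SCC154 in post-hypoxic cells (all genes 34.8% and 34.9%), and 7 were higher and 3 lower in non-hypoxic cells (all genes 34.5% each). EHF, an ETS factor of epithelia, had 440.3 ± 145 CPM in post-hypoxic SCC154 and 3.50 ± 2.71 CPM in post-hypoxic FADU (log2 fold change 7.02, SE 0.29, edgeR adjusted p = 1.85e-15). KLF5 was 2.43-fold higher in post-hypoxic SCC154 (edgeR adjusted p = 1.11e-08). PRDM1 had 17.2 ± 4.58 CPM in post-hypoxic SCC154 and no count in any FADU library.

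**Figure D4:**
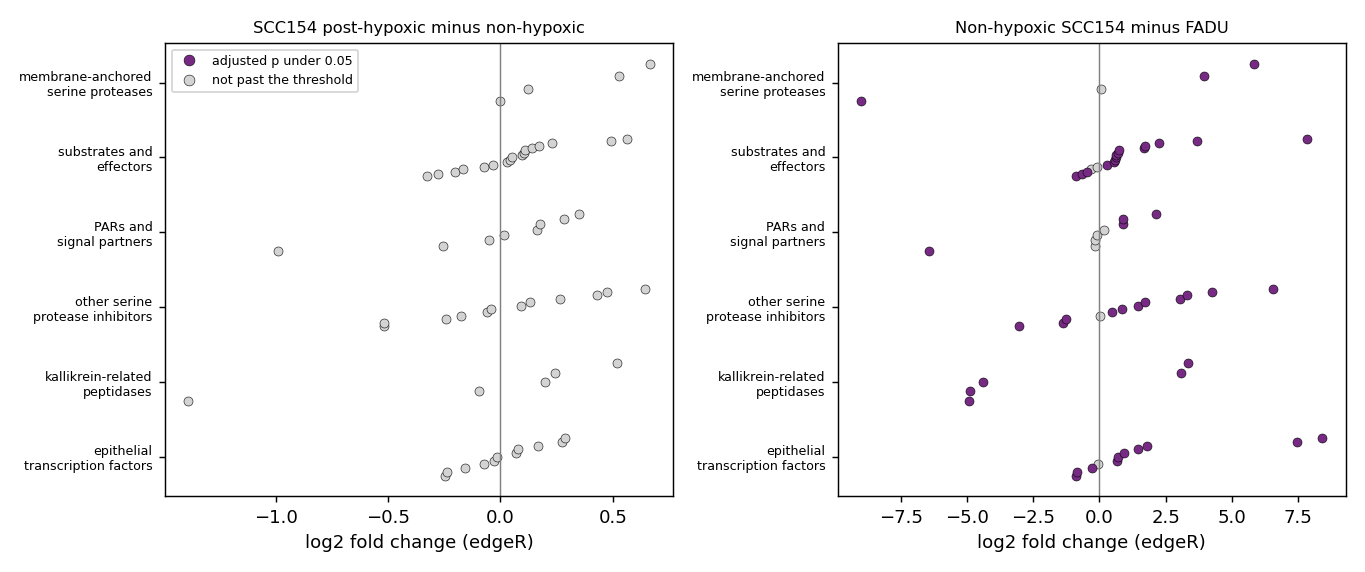
Log2 fold changes (horizontal axes, edgeR) of the tested genes of 6 lists, 1 point a gene, for post-hypoxic minus non-hypoxic SCC154 (left) and for SCC154 minus FADU in non-hypoxic cells (right), with filled purple points past an adjusted p of 0.05. No point is past the threshold on the left, while most are on the right.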

How the data were processed

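The authors deposited whole-number read counts per gene symbol for 18 libraries, 1 column each. Per the submitters' processing notes, the build was hg38 and the tools included featureCounts 1.5.1, HISAT2 2.2.1, DESeq2, UMI-tools 1.1.5, Trimmomatic 0.39 and FastQC 0.11.9. Annotation, strand setting and treatment of multiply matching reads: not given in the sources used here. Columns were matched by library name and groups by title. Of 41120 symbols, 12291 passed filterByExpr. Differences were tested with edgeR 4.0.16 (R 4.3.3): TMM factors, 4 group means over 18 libraries, quasi-likelihood test, Benjamini-Hochberg adjustment over all tested genes, threshold 0.05. Standard errors are the log2 fold change over the square root of F. The test was tried on simulated counts first. DESeq2 1.42.0 and limma 3.58.1 voom were alternatives. Among 32 replicate pairs the chi-square of counts per degree of freedom was at least 1.84, so no pair matched within sampling noise. Same-numbered FADU libraries deviated together (4 of 4 correlations over 0.1, lowest 0.21) and were taken as paired. The pairing is uncertain, since the own number was the best match for 3 of 4 in FADU, as in SCC154. Post-hypoxic FADU replicate 3 correlated 0.28 with its own number and 0.33 with non-hypoxic replicate 4. The printed FADU tests are from the unpaired fit unless a block is named, and the paired fit changed no member's call. Counting error covers tags only, whether or not duplicates were removed.

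The members, lists, tests and named-gene rule were chosen with earlier results of these data known. The rule names all members, up to 4 called genes per list and contrast by lowest p with a group mean of at least 10 CPM, and the 5 genes most like ST14 by each measure; of the genes it names between the lines, some are given only in the list counts. Positions are from GENCODE 29 on hg38.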

Additional observations from a re-analysis of the deposited data

Results flagged for a closer look

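The ratio of PRSS8 to ST14 tags in post-hypoxic SCC154 replicate 4 was 0.818, where the other 3 libraries of the group had 0.556 to 0.597, and stood apart from them by its gap relative to the range of the group. Of 36 groups of values checked in this way (the 6 genes and 3 tag ratios in 4 groups) it was the 1 that did. Chance alone flags about 1 in 20 separate groups, but the ratios reuse the counts of the genes. The ratio contains ST14 in SCC154, on which ST14 was picked, so the flag is a description and no test. PRSS8 was 121 CPM in that library, against 82.9 to 92.1 CPM in the other 3, while ST14 was 148 CPM, so the PRSS8 count set the ratio apart.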

How the results depend on the processing

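Between the lines, calls of PRSS8, TMPRSS4, SPINT2 and F2RL1 in both populations and of SPINT1 in post-hypoxic cells held in all 26 other fits of each contrast. The 18 fits that each left out 1 library gave 20 to 190 genes called in SCC154 (93 with all libraries; each of the 9 SCC154 libraries, FADU post-hypoxic replicate 3 and FADU non-hypoxic replicate 3 moved it by over 1.5 times), 0 to 1 in FADU (0), 2 to 3 for the interaction (2), 8059 to 8662 between lines in non-hypoxic cells and 8228 to 8760 in post-hypoxic cells. With no filter on low counts the calls were 291 in SCC154, 10 in FADU and 51 for the interaction; with DESeq2 they were 207, 3 and 21. Fitting only the SCC154 libraries gave 22. With replicate numbers as a block inside each line, 1052 genes passed in SCC154, 7 in FADU and 224 for the interaction, and the block changed no call of a partner; 3 of 4 SCC154 numbers correlated over 0.1 (lowest 0.05), so these were not taken as pairs. The block shared across lines called 8727 and 8898 genes between the lines. The cause of these shifts was not tested.

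Some values that were not past the threshold changed sign. With the block, F2RL1 was 0.093 in SCC154 and 0.058 for the interaction, and PRSS8 -0.00037 in FADU. When the SCC154 libraries non-hypoxic 1 and post-hypoxic 3 were both left out, a setting added after seeing the data, TMPRSS4 was -0.071 in SCC154 and 72 genes passed. Leaving out 1 library gave log2 fold changes from -0.35 to 0.14 (F2RL1) and -0.014 to 0.48 (TMPRSS4) in SCC154, from -0.44 to 0.047 for the F2RL1 interaction, and, in FADU, from -0.00013 to 0.20 (F2RL1), -0.049 to 0.25 (PRSS8), -0.50 to 0.072 (SPINT1), -0.062 to 0.28 (SPINT2) and -0.36 to 0.026 (TMPRSS4). The ST14 difference in SCC154 lay between 0.46 and 0.55 in all 26 fits. These fits reuse the libraries on which ST14 was picked for its rise, so the narrow range is a description and no support for the rise. At 6 to 49 counts per library, SPINT1, F2RL1 and, in FADU, TMPRSS4 are limited by depth.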
